A study of Homo sapiens with 10 samples.

Results

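The thioredoxin and peroxiredoxin genes described here are TXN, TXN2, TXNRD1, TXNRD2, SRXN1, PRDX1, PRDX2, PRDX3, PRDX5 and PRDX6, taken by gene symbol from a table of read counts over 58676 genes. All 10 symbols matched a single gene, and all 10 passed the filter on low counts that left 16936 genes for testing. RNA-seq was run on HEK293T, a human embryonic kidney line that carries the SV40 large T antigen, after 24 h of overexpression of BRSK2 (3 libraries), BRSK1 (3 libraries) or hcRED, a red fluorescent protein that served as a control (2 libraries), and on Mock cells (2 libraries). The labels do not say what the Mock cells received, how the proteins were delivered, or whether replicates came from separate cultures, and the spread that the p-values measure may therefore be technical. BRSK1 and BRSK2 are related serine/threonine kinases, best known from neurons, and the study's title names them as negative regulators of NRF2, a transcription factor for which several of these genes are well known targets.

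Thioredoxins are small proteins that reduce disulfide bonds in other proteins through a pair of cysteines, and thioredoxin reductases, which are selenoproteins, return them to the reduced state with electrons from NADPH. Peroxiredoxins break down hydrogen peroxide with a reactive cysteine, and most of them are in turn reduced by thioredoxin. Separate sets of these proteins work in the cytosol (TXN, TXNRD1, PRDX1, PRDX2, PRDX6) and in mitochondria (TXN2, TXNRD2, PRDX3), while PRDX5 is found in several compartments and sulfiredoxin (SRXN1) repairs overoxidised peroxiredoxins.

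Library totals lay between 16516116 and 24304302 counts. The BRSK1 and BRSK2 genes together took 6.99%, 9.08% and 10.4% of all counts in libraries labelled BRSK2. In those labelled BRSK1 they took 4.72%, 6.53% and 6.97%. Levels are given as TMM-scaled CPM (read counts relative to the effective library size). The BRSK2 gene had a mean of 92144 CPM in BRSK2 libraries and 79.7 CPM in BRSK1 libraries. The BRSK1 gene had 60643 CPM in BRSK1 libraries and 26.2 CPM in BRSK2 libraries, so the kinase libraries matched their labels. The 7 markers of HEK293 cells were detected in every group, from PAX2 (2.43 to 5.73 CPM) to NEFM (127 to 186 CPM). Their summed levels were 473 to 493 CPM in BRSK2, 452 to 464 in BRSK1, 382 to 397 in hcRED and 461 to 476 in Mock libraries. Of 11 markers of other cell types, PTPRC had 0 counts in every library and CD3E, ALB, APOA1, DCN, PECAM1 and CDH5 had at most 7. The fibroblast marker COL1A1 was detected in every library, at 22.2 to 37.5 CPM (398 to 742 counts). COL1A2, another fibroblast marker, had 11 to 90 counts. Replicate 1 of BRSK1 stood apart in KRT5 and KRT14, at 29.3 and 32.7 CPM, and the marker sum of other cell types reached 97.4 CPM in BRSK1 libraries, against at most 48.0 CPM in the control groups. The part of these differences in the results below was not tested, and without that library the number of the 10 genes that passed was still 0 in every comparison.

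The 10 genes spanned a wide range of transcript levels, which were set side by side as CPM per kb of the exon length given in the deposited table. PRDX1 (a mean of 193 CPM per kb over the 10 libraries), TXN (192) and PRDX5 (172) formed the top of the order. PRDX6 followed at 119, PRDX2 at 74.2, PRDX3 at 67.2, TXN2 at 53.1 and TXNRD1 at 28.1. TXNRD2 (5.86) and SRXN1 (0.958) were the lowest. Neighbours whose library ranges overlapped were PRDX1 and TXN, TXN and PRDX5, PRDX2 and PRDX3, and PRDX3 and TXN2. Within libraries, PRDX3 was above TXN2 in all 10, TXN above PRDX5 in 9 and PRDX2 above PRDX3 in 8, whereas PRDX1 was above TXN in only 5. With the length of the longest annotated transcript in place of the exon length, PRDX1 and TXN changed places and the rest of the order was the same. Cytosolic thioredoxin and its reductase each stood above the mitochondrial counterpart in all 10 libraries. Per kb of exon length, TXN had 2.83 to 4.48 times the level of TXN2 (median 3.63), and TXNRD1 had 3.79 to 6.04 times that of TXNRD2 (median 5.07). The size of these ratios depends on the length used. Per kb of the longest transcript, mean levels were 252 for TXN and 62.8 for TXN2. Those of TXNRD1 and TXNRD2 were 44.1 and 15.5, a smaller gap than by exon length.

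**Figure D1:**
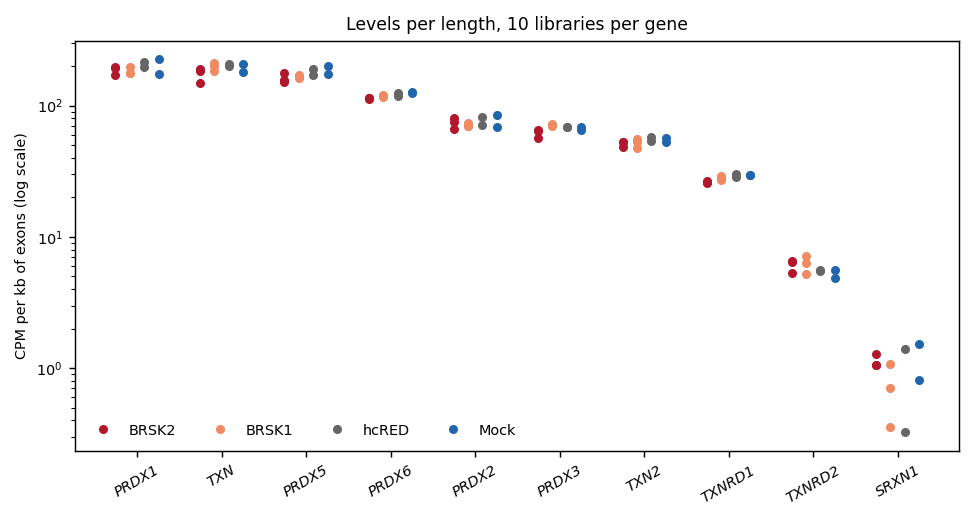
TMM-scaled CPM per kb of exon length (log axis) of the 10 genes in each of the 10 libraries, one point per library, coloured by group and ordered by mean. PRDX1, TXN and PRDX5 share the top range, while TXNRD2 and SRXN1 lie far below the other 8 genes in every group.

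With BRSK2, none of the 10 genes passed the test against the controls. The controls were taken as the average of both control groups, hcRED and Mock (3 libraries against 2 and 2), and tested by edgeR's quasi-likelihood test with Benjamini-Hochberg adjustment over all tested genes, and a gene was called at an adjusted p under 0.05. The count of 0 of 10 stood against 7.82% of all tested genes called with BRSK2 (4.77% higher and 3.05% lower). At an unadjusted p under 0.05 there were 5 of the 10 genes (TXN, TXNRD1, PRDX3, PRDX5 and PRDX6, all with values below 0), beside 3901 of the 16936 tested genes. DESeq2 called 1 of the 10, TXNRD1, and limma-voom called 0. The log2 fold changes of 8 of the 10 genes were below 0, with a median of -0.12, whereas the median of all tested genes was 0.0023 and 49.5% of them were below 0. Without SRXN1, which was imprecise, the 9 fold changes lay between 0.876 and 1.14, and their 95% confidence intervals ran from 0.787 to 1.30.

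With BRSK1, none of the 10 genes passed either, against 6.43% of all tested genes (3.77% higher and 2.66% lower). TXNRD2 and PRDX5 had an unadjusted p under 0.05, beside 3693 genes in all, and DESeq2 and limma-voom each called 0 of the 10. The median log2 fold change was -0.08 and 7 of the 10 values were below 0, against an all-gene median of 0.0026. Without SRXN1, the fold changes lay between 0.906 and 1.15, with intervals from 0.812 to 1.32. Both kinases were set against the same 4 control libraries, so the values of the 2 comparisons are not independent.

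**Figure D2:**
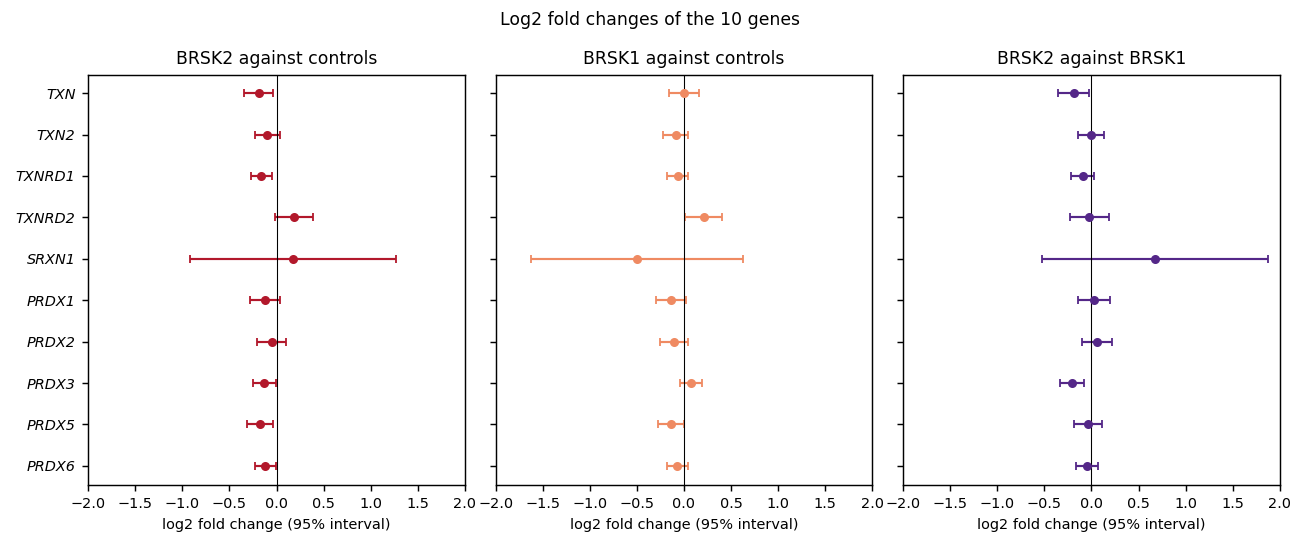
Log2 fold changes (points) with 95% confidence intervals (bars) of the 10 genes for BRSK2 against controls, BRSK1 against controls and BRSK2 against BRSK1, from edgeR's quasi-likelihood fit. Apart from SRXN1, all values lie within about 0.2 of 0. SRXN1 has by far the widest interval, and no gene passed at an adjusted p under 0.05.

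Among the thioredoxins, TXN (chr9:110243811-110256640, minus strand, hg38 as in the deposited tables, like the positions that follow) is the cytosolic form. It had 171, 217 and 210 TMM-scaled CPM in BRSK2 libraries and 211, 243 and 229 CPM in BRSK1 libraries, against 239 and 227 CPM in hcRED and 237 and 208 CPM in Mock libraries. Replicate 1 of BRSK2 was the lowest of all 10 libraries, and the other BRSK2 libraries overlapped with Mock replicate 3. The log2 fold change with BRSK2 was -0.19 ± 0.08 (SE, adjusted p = 0.126), and -0.09 without BRSK2 replicate 1 (adjusted p = 0.397). With BRSK1 it was 0.0003 ± 0.07 (adjusted p = 0.999), so the interval for TXN allowed a fold of 0.898 to 1.11. TXN2 (chr22:36467036-36482030, minus strand), the mitochondrial form, had 108, 109 and 99.9 CPM in BRSK2 libraries and 108, 97.4 and 113 CPM in BRSK1 libraries, against 118 and 110 CPM in hcRED and 109 and 116 CPM in Mock libraries. All 3 BRSK2 libraries lay below all 4 controls, by a narrow margin (108.8 against 108.9 CPM at the closest), and the BRSK1 libraries overlapped with them. The log2 fold changes were -0.10 ± 0.06 with BRSK2 (adjusted p = 0.379) and -0.09 ± 0.06 in the BRSK1 comparison (adjusted p = 0.427).

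TXNRD1 (chr12:104215779-104350305, plus strand), the cytosolic reductase and a well known NRF2 target, had the smallest p of the 10 genes with BRSK2. It had 176, 173 and 180 CPM in BRSK2 libraries and 197, 188 and 181 CPM in BRSK1 libraries, against 192 and 203 CPM in hcRED and 197 and 197 CPM in Mock libraries. All 3 BRSK2 libraries lay below the other 7, although BRSK1 replicate 3 was only just above them (180.6 against 180.4 CPM). The log2 fold change with BRSK2 was -0.16 ± 0.06 (a fold of 0.894, adjusted p = 0.0714) and that with BRSK1 was -0.07 ± 0.05 (adjusted p = 0.511). The 95% interval of the BRSK2 fold ran from 0.826 to 0.967.

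The promoters of TXNRD1 are shown because they were the only promoters searched among these genes that held the core of the antioxidant response element, the site that NRF2 binds with a small MAF protein. The letters searched were TGACNNNGC, on both strands and as the only motif, in RefSeq windows of 300 bases (250 before the start and 50 after it, build GRCh38.p14). Windows were found for 7 of the 10 genes (TXN2, PRDX1 and PRDX6 were not searched), and 2 of the 11 windows held the letters, both of TXNRD1. Of all 35116 windows, 13.35% did. Counted by gene, 1 of the 7 held the letters, against 16.06% of the 27305 genes with a window. The windows lie on the plus strand, with the matches in capitals.
TXNRD1, chr12:104215529-104215828: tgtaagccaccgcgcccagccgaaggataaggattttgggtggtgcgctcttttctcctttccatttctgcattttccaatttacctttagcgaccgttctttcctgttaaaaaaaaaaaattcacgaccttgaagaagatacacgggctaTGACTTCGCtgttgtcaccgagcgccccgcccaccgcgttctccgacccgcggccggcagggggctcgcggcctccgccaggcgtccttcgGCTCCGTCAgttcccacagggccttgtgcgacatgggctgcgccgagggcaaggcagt
TXNRD1, chr12:104286782-104287081: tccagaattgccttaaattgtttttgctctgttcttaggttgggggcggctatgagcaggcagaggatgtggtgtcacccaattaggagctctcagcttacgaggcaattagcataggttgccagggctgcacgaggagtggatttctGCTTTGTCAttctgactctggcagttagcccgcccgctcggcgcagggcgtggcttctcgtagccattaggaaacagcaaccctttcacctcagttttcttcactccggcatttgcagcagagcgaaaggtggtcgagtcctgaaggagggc
The first window surrounds the 5′ end of the gene and holds a match on the plus strand and another on the minus strand close to the start. The second surrounds a start within the gene and holds a match on the minus strand. These matches describe the letters only, and the counts per gene do not separate transcripts from the 2 starts.

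TXNRD2 (chr22:19875517-19941992, minus strand), the mitochondrial reductase, lay on the other side of 0. It had 44.6, 55.2 and 54.1 CPM in BRSK2 libraries and 52.7, 43.9 and 59.6 CPM in BRSK1 libraries, against 46.1 and 46.8 CPM in hcRED and 46.9 and 40.8 CPM in Mock libraries. Both kinase groups had 1 library within the control range and the other 2 above it. The log2 fold changes were 0.18 ± 0.10 with BRSK2 (adjusted p = 0.253) and 0.21 ± 0.09 in the BRSK1 comparison (adjusted p = 0.202). The BRSK1 value of TXNRD2 was 0.10 without BRSK1 replicate 3 (adjusted p = 0.673) and 0.32 without BRSK1 replicate 2 (adjusted p = 0.0578), and the BRSK2 value was 0.28 without BRSK2 replicate 1 (adjusted p = 0.0538). Because the 2 reductases lay on opposite sides of 0, the ratio of TXNRD1 to TXNRD2 counts was examined after their values were seen, as a description with no test. It was 3.95, 3.13 and 3.34 in BRSK2 libraries and 3.73, 4.28 and 3.03 in BRSK1 libraries, against 4.17 and 4.35 in hcRED and 4.2 and 4.83 in Mock libraries. All BRSK2 ratios lay below all control ratios, and 1 BRSK1 ratio lay within the control range.

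SRXN1 (chr20:646615-653370, minus strand), which repairs overoxidised peroxiredoxins, was close to the lower limit of what these libraries could measure. It had 52, 70 and 45 counts in BRSK2 libraries and 40, 66 and 23 counts in BRSK1 libraries, against 80 and 18 counts in hcRED and 81 and 44 counts in Mock libraries. The control libraries alone spanned 0.881 to 4.09 CPM, a range that held every kinase library. The log2 fold change was 0.18 ± 0.48 with BRSK2 (adjusted p = 0.879) and -0.50 ± 0.50 in the BRSK1 comparison (adjusted p = 0.622). The 95% intervals ran from a fold of 0.530 to 2.41 with BRSK2 and from 0.324 to 1.55 with BRSK1. A fall or a rise of SRXN1 within these ranges therefore remained possible. Without hcRED replicate 1 the values became 0.88 with BRSK2 and 0.20 with BRSK1, and without hcRED replicate 3 they became -0.17 and -0.84, so a single control library set their sign.

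**Figure D3:**
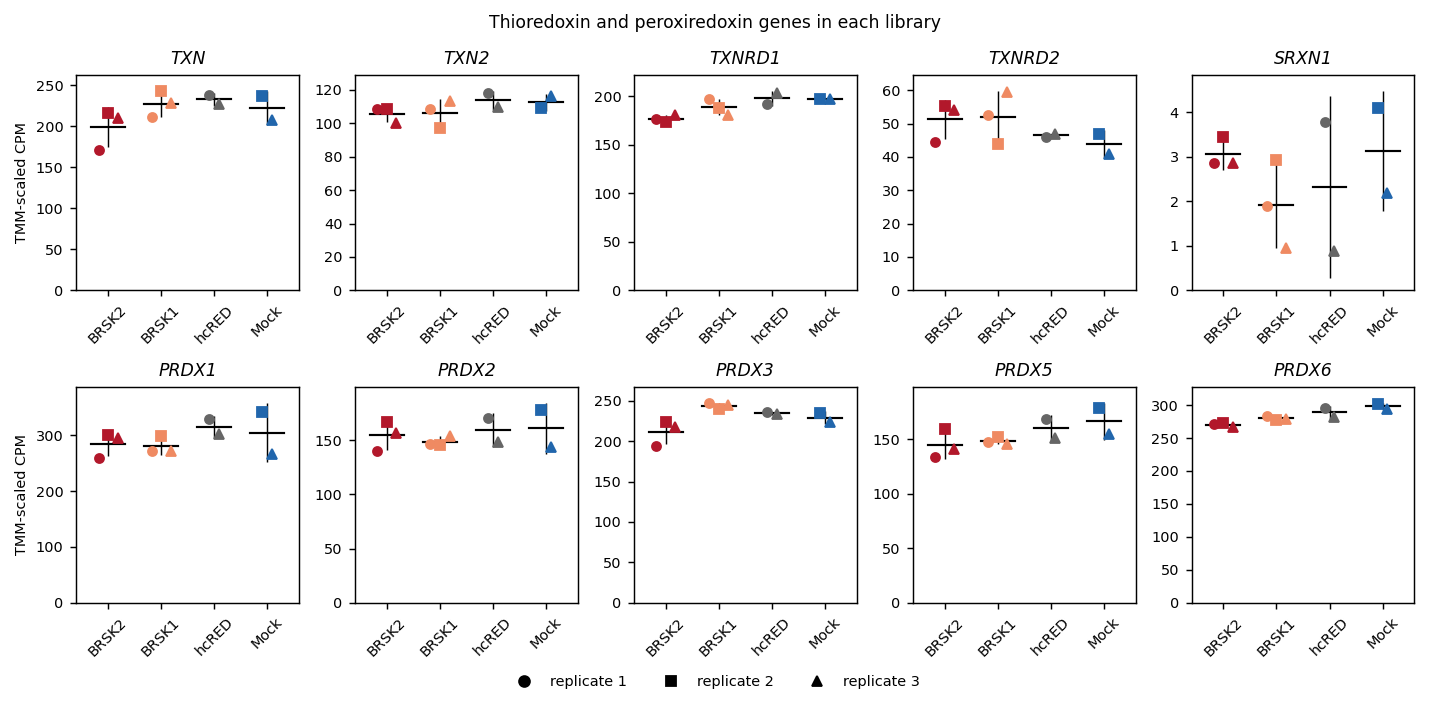
TMM-scaled CPM of each of the 10 genes in every library, with groups BRSK2, BRSK1, hcRED and Mock from left to right; points are libraries (shape gives the replicate number), horizontal lines are group means and vertical lines are ± 1 SD. BRSK2 libraries lie below all 4 controls in the panels of TXN2, TXNRD1 and PRDX6, and the groups overlap in most other panels.

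PRDX1 and PRDX2 are the typical cytosolic peroxiredoxins, which are reduced by thioredoxin. PRDX1 (chr1:45511036-45523047, minus strand) had 260, 301 and 296 CPM in BRSK2 libraries and 272, 300 and 272 CPM in BRSK1 libraries, against 329 and 302 CPM in hcRED and 343 and 267 CPM in Mock libraries. The range between the 2 Mock libraries held every kinase library but 1, replicate 1 of BRSK2. Its log2 fold changes were -0.12 ± 0.08 with BRSK2 (adjusted p = 0.378) and -0.14 ± 0.08 in the BRSK1 comparison (adjusted p = 0.288). Single Mock libraries moved both PRDX1 values, to -0.03 with BRSK2 and -0.05 with BRSK1 without Mock replicate 2, and to -0.20 (adjusted p = 0.0929) and -0.23 (adjusted p = 0.0679) without Mock replicate 3, and the BRSK2 value was -0.06 without BRSK2 replicate 1. PRDX2 (chr19:12796820-12801859, minus strand) had 140, 167 and 157 CPM in BRSK2 libraries and 147, 145 and 154 CPM in BRSK1 libraries, against 171 and 149 CPM in hcRED and 178 and 144 CPM in Mock libraries. The groups overlapped, with log2 fold changes of -0.05 ± 0.07 with BRSK2 (adjusted p = 0.749) and -0.11 ± 0.07 in the BRSK1 comparison (adjusted p = 0.413). The sign of PRDX2 with BRSK2 turned on single libraries, at 0.03 without Mock replicate 2 and 0.02 without BRSK2 replicate 1, against -0.12 without Mock replicate 3, and with BRSK1 the value ran from -0.18 to -0.03. PRDX1 overlaps MMACHC on the opposite strand (480 to 826 counts per library) and PRDX2 overlaps HOOK2 on the same strand (499 to 795 counts), so reads there could have been split.

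PRDX3 (chr10:119167703-119178833, minus strand), the mitochondrial peroxiredoxin, had the smallest p of the 10 genes between the kinases. It had 194, 224 and 218 CPM in BRSK2 libraries and 247, 240 and 245 CPM in BRSK1 libraries, against 236 and 234 CPM in hcRED and 235 and 223 CPM in Mock libraries. The BRSK1 libraries lay above all 4 controls and above all BRSK2 libraries, and only 1 BRSK2 library overlapped with the controls, by a margin of less than 1 CPM. The log2 fold change was -0.13 ± 0.06 for BRSK2 (adjusted p = 0.179, and -0.07 without BRSK2 replicate 1) and 0.07 ± 0.06 in the BRSK1 comparison (adjusted p = 0.491). The 4 annotated pseudogenes of PRDX3 together took at most 0.593% of its own count in any library.

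PRDX5 (chr11:64318088-64321811, plus strand) is a peroxiredoxin of mitochondria, peroxisomes and cytosol. It had 134, 159 and 141 CPM in BRSK2 libraries and 148, 152 and 146 CPM in BRSK1 libraries, against 169 and 152 CPM in hcRED and 179 and 155 CPM in Mock libraries. In both kinase groups 2 libraries were below all controls and 1 was within their range. The log2 fold changes were -0.17 ± 0.07 with BRSK2 (adjusted p = 0.110) and -0.14 ± 0.07 in the BRSK1 comparison (adjusted p = 0.227). PRDX6 (chr1:173477266-173488807, plus strand), which has a single catalytic cysteine and takes its electrons from glutathione, varied least of the 10 genes, with a coefficient of variation of 4.12% over all libraries. It had 271, 273 and 266 CPM in BRSK2 libraries and 283, 277 and 279 CPM in BRSK1 libraries, against 296 and 282 CPM in hcRED and 302 and 294 CPM in Mock libraries. All 3 BRSK2 libraries were below the other 7, and the log2 fold changes were -0.12 ± 0.05 with BRSK2 (adjusted p = 0.176) and -0.07 ± 0.05 in the BRSK1 comparison (adjusted p = 0.480).

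Libraries that did not overlap were thus found for TXN2, TXNRD1 and PRDX6 (all BRSK2 libraries below all controls) and for PRDX3 (all BRSK1 libraries above all controls). Of all tested genes, 8.2% were wholly lower and 9.09% wholly higher with BRSK2, and 8.44% were wholly lower and 9.93% wholly higher with BRSK1. Replicate 1 of BRSK2 was the lowest of the 10 libraries for 5 of the genes (TXN, PRDX1, PRDX2, PRDX3 and PRDX5), and replicate 2 of Mock was the highest for 5 (SRXN1, PRDX1, PRDX2, PRDX5 and PRDX6). Without BRSK2 replicate 1, the median log2 fold change with BRSK2 was -0.08 and 7 of the 10 values were below 0. In bulk RNA, a lower level in all cells and a strong decrease in the overexpressing cells alone cannot be told apart, nor can fewer cells of a kind and less RNA per cell.

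Between the kinases, none of the 10 genes passed, beside 0.348% of all tested genes (59). PRDX3 had the smallest p, with a log2 fold change of -0.20 ± 0.06 for BRSK2 against BRSK1 (a fold of 0.868, 95% interval 0.795 to 0.949, adjusted p = 0.155). TXN stood at -0.19 ± 0.08 (adjusted p = 0.324), with an interval of the fold from 0.781 to 0.983. Those 2 genes had an unadjusted p under 0.05, beside 2094 of all tested genes, and DESeq2 called PRDX3 alone while limma-voom called 0. TXNRD1, PRDX3 and PRDX6 were wholly lower in BRSK2 than in BRSK1 libraries, as were 9.02% of all tested genes, and none of the 10 was wholly higher (8.65% of all tested genes). With the GC and length trend removed, the PRDX3 value was -0.11. Apart from SRXN1, whose interval was 0.695 to 3.67, the intervals of the fold ran from 0.781 to 1.17.

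Between the control groups, hcRED and Mock, none of the 10 genes passed, beside 0.0295% of all tested genes (5), and none had an unadjusted p under 0.05, whereas 1516 of all tested genes did. DESeq2 and limma-voom each called 0. Without SRXN1 (-0.42 ± 0.63), the log2 fold changes lay between -0.06 (PRDX5) and 0.08 (TXNRD2). In none of the 10 genes did the hcRED and Mock libraries fail to overlap, while 20.3% of all tested genes were wholly lower and 20% wholly higher in hcRED.

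Beyond the 10 genes, 10 others of the thioredoxin system were examined, among them a peroxiredoxin of the endoplasmic reticulum, PRDX4, which did pass. PRDX4 had 157, 146 and 138 CPM in BRSK2 libraries and 161, 151 and 150 CPM in BRSK1 libraries, against 193 and 179 CPM in hcRED and 194 and 182 CPM in Mock libraries. Every kinase library was below every control, and PRDX4 fell with BRSK2 (log2 fold change -0.35 ± 0.06, adjusted p = 0.000847) and also with BRSK1 (-0.28 ± 0.06, adjusted p = 0.0074). The call with BRSK1 was lost without BRSK1 replicate 3 (adjusted p = 0.0648), without hcRED replicate 1 (0.0518) and against hcRED alone (0.0590). The kinases did not differ in PRDX4 at the threshold (-0.07 ± 0.06, adjusted p = 0.735, interval of the fold 0.872 to 1.05). TXNIP, which binds thioredoxin and inhibits it, had 23.6, 33.3 and 34.2 CPM in BRSK2 libraries and 33.5, 44.9 and 44.8 CPM in BRSK1 libraries, against 18.8 and 21.4 CPM in hcRED and 14.5 and 16.4 CPM in Mock libraries. It rose in every kinase library, by 0.78 ± 0.14 with BRSK2 (adjusted p = 0.00309, and 0.0592 against hcRED alone) and by 1.22 ± 0.13 in the BRSK1 comparison (adjusted p = 0.000224). TXNDC17, a small thioredoxin-related protein of the cytosol, fell with BRSK2, at -0.31 ± 0.07 (adjusted p = 0.0120), and it stood at -0.07 ± 0.07 in the BRSK1 comparison (adjusted p = 0.611), and the difference between the kinases did not pass (adjusted p = 0.194). Its BRSK2 call was lost without BRSK2 replicate 3 (0.0874), without hcRED replicate 1 (0.0695) and against Mock alone (0.0681). In all, 1 of the 10 rose and 2 fell with BRSK2 (median log2 fold change 0.01), and 1 rose and 1 fell with BRSK1 (median -0.07).

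**Figure D4:**
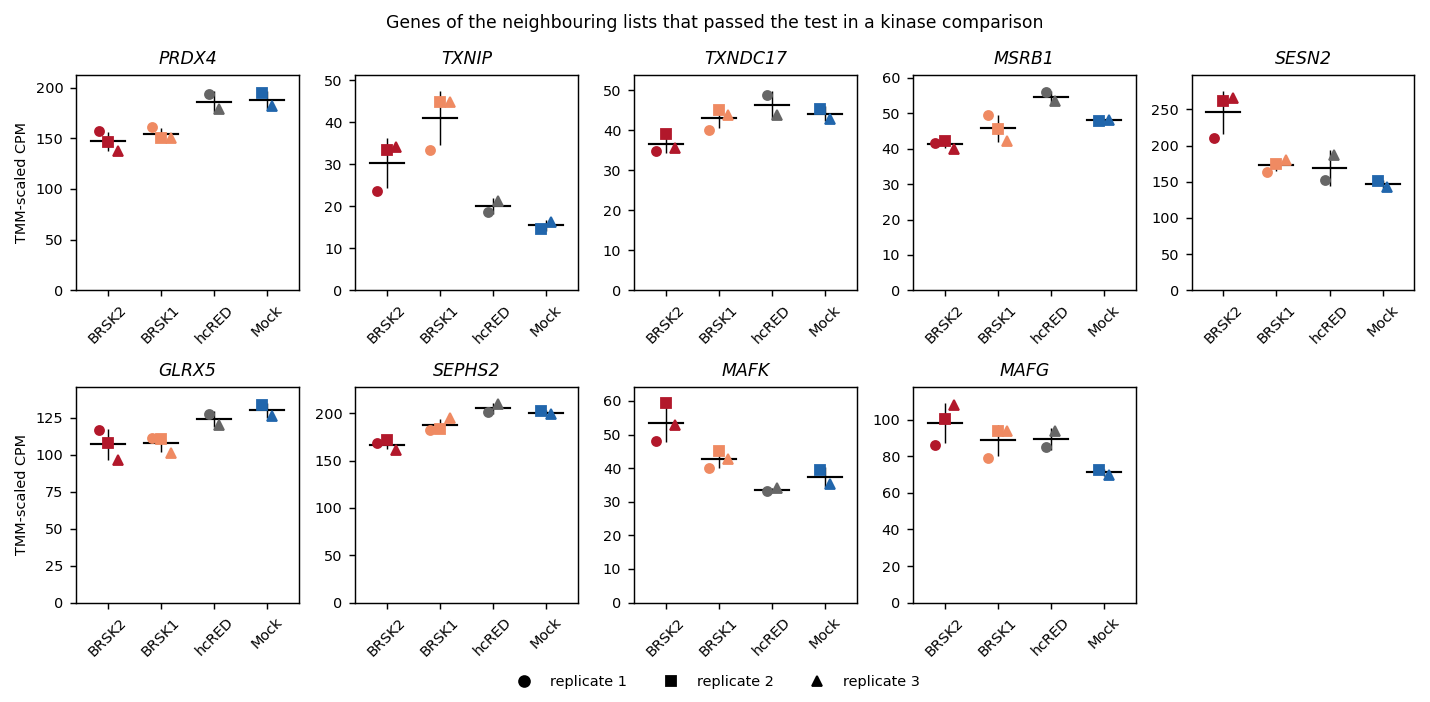
TMM-scaled CPM in every library of the 9 genes from the neighbouring lists that passed in at least 1 kinase comparison, with groups BRSK2, BRSK1, hcRED and Mock from left to right; points are libraries, horizontal lines group means and vertical lines ± 1 SD. TXNIP, PRDX4, GLRX5 and MAFK separate both kinase groups from the 4 controls, and SESN2, SEPHS2, TXNDC17 and MAFK separate the BRSK2 libraries from all others.

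Enzymes and partners that depend on thioredoxin were mostly without a call. Of 11 such genes, 1 rose and 1 fell with BRSK2 (median log2 fold change -0.05), and 0 passed with BRSK1 by edgeR (median 0.03), where 2 had an unadjusted p under 0.05, MSRB1 (-0.16 ± 0.07, adjusted p = 0.168) and SESN1, another sestrin (0.20 ± 0.09, adjusted p = 0.186). SESN2, a sestrin induced by stress, had 211, 261 and 265 CPM in BRSK2 libraries and 164, 174 and 181 CPM in BRSK1 libraries, against 152 and 186 CPM in hcRED and 150 and 143 CPM in Mock libraries. It rose with BRSK2 (0.64 ± 0.08, adjusted p = 6.51e-05) and was the only gene of these lists that passed between BRSK2 and BRSK1 (0.51 ± 0.08, adjusted p = 0.0173). The call between the kinases was lost without BRSK1 replicate 1 or 2 and without BRSK2 replicate 2 or 3 (adjusted p of 0.0677 to 0.0894), and with the GC and length trend removed (0.154). MSRB1, a selenoprotein that repairs oxidised methionine, fell with BRSK2 (-0.31 ± 0.07, adjusted p = 0.00836). Its value no longer passed when BRSK2 replicate 3 was left out (-0.29, adjusted p = 0.0723) or when Mock alone served as control (-0.22, adjusted p = 0.131), and the MSRB1 values lay between -0.42 and -0.22 over all 26 alternatives.

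Among 12 glutaredoxins and other enzymes that remove peroxide or superoxide, 11 could be tested (GPX7 was too low). GLRX5, a mitochondrial glutaredoxin of iron-sulfur cluster assembly, fell with BRSK2 (-0.25 ± 0.07, adjusted p = 0.0228) and also with BRSK1 (-0.24 ± 0.06, adjusted p = 0.0310). All kinase libraries of GLRX5 were below all controls (96.3 to 117 CPM in BRSK2 and 101 to 112 CPM in BRSK1 libraries, against 120 to 134 CPM in the controls). Single libraries decided both calls, which reached an adjusted p of 0.215 without BRSK2 replicate 3 and 0.197 without BRSK1 replicate 3. No other gene of the list passed, and its median was -0.12 with BRSK2 and -0.06 with BRSK1. Of 6 genes for selenocysteine incorporation, on which the thioredoxin reductases depend, SEPHS2, which makes selenophosphate, fell with BRSK2 (-0.28 ± 0.05, adjusted p = 0.00249) in all 26 alternatives. With BRSK1 it stood at -0.12 ± 0.05 (adjusted p = 0.215), and SEPSECS, which makes the selenocysteine on its tRNA, had the smallest p of this list (0.39 ± 0.14, adjusted p = 0.0853). The SEPSECS controls stood apart, at a mean of 8.08 CPM in hcRED and 5.70 CPM in Mock libraries, and its BRSK1 value was 0.14 against hcRED alone (adjusted p = 0.760) and 0.64 against Mock alone (adjusted p = 0.0246). None of the 6 passed with BRSK1 by edgeR, although 3 had an unadjusted p under 0.05.

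Of 10 genes that control NRF2, 2 passed, the small MAF genes MAFK and MAFG, while MAFF, the third small MAF gene, stood at 0.09 ± 0.18 with BRSK2 (adjusted p = 0.831) and at -0.13 ± 0.18 in the BRSK1 comparison (adjusted p = 0.717). MAFK had 48.1, 59.5 and 53.0 CPM in BRSK2 libraries and 40.1, 45.2 and 42.9 CPM in BRSK1 libraries, against 33.2 and 34.0 CPM in hcRED and 39.5 and 35.3 CPM in Mock libraries. It rose with BRSK2 (0.60 ± 0.08, adjusted p = 4.64e-05) and also with BRSK1 (0.27 ± 0.08, adjusted p = 0.0399). MAFG rose with BRSK2 (0.30 ± 0.08, adjusted p = 0.0169), although its hcRED libraries (85.0 and 93.6 CPM) lay well above its Mock libraries (72.5 and 69.9 CPM), and against hcRED alone it did not pass (0.14, adjusted p = 0.466). The MAFK call with BRSK1 and the MAFG call with BRSK2 were also lost when single libraries were left out (adjusted p up to 0.165 for MAFK and 0.166 for MAFG). NFE2L2, which encodes NRF2, and KEAP1, which targets NRF2 for degradation, stood at 0.02 ± 0.08 and 0.01 ± 0.06 with BRSK2 and at 0.08 ± 0.08 and -0.07 ± 0.06 with BRSK1, and neither passed (adjusted p of at least 0.463). The hcRED libraries of NFE2L2 lay above its Mock libraries (38.8 and 44.2 CPM in hcRED, against 33.2 and 30.4 CPM in Mock). Against Mock alone the NFE2L2 value was 0.21 with BRSK2 and 0.27 with BRSK1. Its kinase means (36.7 CPM with BRSK2 and 38.4 CPM with BRSK1) lay above the Mock mean (31.8 CPM) but below the hcRED mean (41.5 CPM).

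In the authors' deposited tables, which list 723 genes for BRSK2 and 879 for BRSK1 at an adjusted p under 0.05, none of the 10 genes appeared. For PRDX4 the authors' deposited table gave log2 fold changes of -0.34 with BRSK2 and -0.28 with BRSK1. TXNIP and MAFK were likewise listed for both kinases, and SESN2, SEPHS2, MSRB1 and TXNDC17 for BRSK2 alone. Other genes differed from the calls made here. MAFG was in neither table, and GLRX5 was listed for BRSK1 (-0.23) but not for BRSK2. CUL3, of the NRF2 control list, was listed for BRSK1 (-0.21), although it did not pass here.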

How the data were processed

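Both kinases have a deposited table of raw counts, in which the 4 control libraries are repeated (0 control counts differed), so that matching gene IDs gave a single table of 10 libraries. The submitters' processing notes name STAR, edgeR, limma and hg38 without versions, and which program counted reads, on which strand setting and annotation, is not given in the sources used here. Further tables hold the authors' deposited log2 fold changes, log2 CPM values, p-values and limma's scores, of which only the listed log2 fold changes were quoted. Gene length is the authors' deposited length, which equalled the exon union of GENCODE 29 for all 10 genes.

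Counts were tested with edgeR 4.0.16 in R 4.3.3, with TMM scaling, robust glmQLFit and glmQLFTest, after filterByExpr at its settings of 10 (minimum count) and 15 (minimum total). A single fit of 4 group means held all libraries, so that small groups share the estimate of spread (biological coefficient of variation 8.06%), and the Benjamini-Hochberg adjustment ran over 16936 genes with a threshold of 0.05. The SE was obtained from the log2 fold change and the F statistic, as the size of the change over the root of F, and 95% intervals use the t distribution with the fit's degrees of freedom. The procedure was tested on simulated data, with a single spread for all genes. The planted changes were larger than those of the 10 genes apart from SRXN1, and lay in genes with more counts than SRXN1. That test therefore does not cover changes as small as those reported here, or genes as low as SRXN1. Alternatives were DESeq2 1.42.0, limma-voom (limma 3.58.1), other scalings and filters, a replicate block, a GC and length correction, other control sets and each library left out. Figures were drawn with matplotlib from the same values.

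The 10 genes and the lists were chosen with earlier results of these data known. From each list, every gene called in a kinase comparison is named, and otherwise up to 2 with the smallest p; other names were chosen after their values were seen. Samples were grouped by the genotype in the labels, with replicate numbers from the sample titles.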

Additional observations from a re-analysis of the deposited data

Results flagged for a closer look

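SESN2 was the gene named here whose effect differed between the kinases past the threshold: its log2 fold change for BRSK2 against BRSK1 was 0.5079 (adjusted p = 0.0173), with all 3 BRSK2 libraries above all 3 BRSK1 libraries. None of the 10 thioredoxin and peroxiredoxin genes passed between the kinases by the same edgeR test.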

How the results depend on the processing

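Over 26 alternatives for each kinase against the controls, the number of the 10 genes called with BRSK2 was 0 in all but 5. It was 7 with library totals alone as scaling (TXN, TXN2, TXNRD1, PRDX1, PRDX3, PRDX5 and PRDX6), a setting that shifted the median of all genes to -0.10 and gave TXNRD1 -0.16 and TXN -0.19 relative to it. It was 1 with no filter on low counts (TXN), 1 by DESeq2 (TXNRD1) and 2 with the GC and length trend removed (TXNRD1 and PRDX5). With the replicate block it was 3 (TXN, TXNRD1 and PRDX5). Whether equal replicate numbers pair the samples could not be decided. Same-numbered libraries correlated at -0.051 to 0.161 in their deviations from group means, over 0.1 in 2 of 12 pairs. Other pairs correlated at -0.14 to 0.10. In groups of 2 libraries the deviations are mirror images, so these correlations cannot settle the pairing. With BRSK1 the number of the 10 genes called was 0 in every alternative. Between the kinases it was 1 with library totals alone and 1 by DESeq2 (PRDX3 each time) and 0 in the other alternatives run, and between hcRED and Mock it was 0 in all 23. Leaving out each library in turn gave 0 to 0 in every comparison. The cause of these differences was not tested.

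The counts of all genes called, against which the 10 are read, moved more. With BRSK2 the 1325 calls became 3001 with library totals alone (494 higher and 2507 lower, against 808 and 517), 2153 with the replicate block, 606 against hcRED alone and 474 at an adjusted p under 0.01. Leaving out a library moved them most without BRSK2 replicate 1 (2211), 2 (641) or 3 (346), hcRED replicate 1 (647) or 3 (800) and Mock replicate 3 (776). With BRSK1 the 1089 calls became 1999 with the replicate block, 133 against hcRED alone and 256 at the stricter threshold, and without BRSK1 replicate 2 (415) or 3 (204), hcRED replicate 1 (314) or 3 (654), Mock replicate 3 (585) or BRSK2 replicate 1 (1751) they moved likewise. Between the kinases the 59 calls ranged from 6 at the stricter threshold to 267 with the replicate block, with 206 under library totals alone, 190 by DESeq2 and 188 with no filter. Between hcRED and Mock the 5 calls ranged from 0 to 434, the higher count with the replicate block. SRXN1 had the fewest counts of the 10 genes (18 to 81 per library) and varied most, with a coefficient of variation of 42.5%. Whether low counts or variation between libraries set its wide intervals was not tested.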
